A study of Mus musculus with 60 samples.

Results

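The collagen genes were taken as every gene whose symbol in the array's probe annotation had the form Col, a type number, the letter a and a chain number, and 42 of the 18193 genes measured matched. Each gene was read from 1 probe set, the one with the highest mean over the 60 arrays. By class there were 11 fibrillar collagens, 8 basement membrane collagens (the 6 chains of collagen IV with Col15a1 and Col18a1) and 23 others, among them 5 chains of collagen VI, which builds beaded filaments. Gene expression had been measured in the right diaphragmatic lung lobe of 60 male Balb/c mice, 1 array per mouse, to follow the response of the lung to inhaled nanoparticles. SPIO mice had breathed an aerosol of superparamagnetic iron oxide nanoparticles for 4 h, and CON mice, the sham controls, had breathed the humidified helium, oxygen and filtered air mixture without particles. Lungs were taken at 0, 6, 24, 48, 96 or 168 h after the exposure from 5 SPIO mice and 5 CON mice at each time. The 96 h mice of both kinds had also gone through plethysmography, and the 168 h mice had lived in metabolism cages on a liquid diet, so these times differ from the others in handling as well as in hours.

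Collagens are secreted proteins in which 3 chains wind into a triple helix. Fibrillar collagens such as I and III assemble into the fibrils that give the lung its tensile strength, collagen IV forms the sheet-like network of the alveolar and vascular basement membranes, and collagen VI forms microfibrils at the boundary between cells and the interstitial matrix. In the lung most fibrillar collagen and collagen VI is made by fibroblasts and smooth muscle cells, while endothelial and epithelial cells contribute much of the collagen IV.

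The genes on which the results below turn are shown first with the 250 bases before the start site given in the promoter table (RefSeq, GRCm38.p6, 5′ to 3′ on the strand of the gene). For Col6a3, Col4a1 and Col4a5 that site lies 30, 63 and 49 bases inside the gene's outer limit in the RefSeq gene table, whose coordinates are given with the genes below, so these windows overlap the annotated gene by as much. For Col6a1, Col6a2 and Col4a2 both tables give the same start. The windows show genes whose values moved together or in opposite directions, and 33 of the 42 genes had a window in the table. Capitals mark any match, searched on both strands, to 1 of 4 motifs: the CCAAT box, the GC box with the letters GGGCGG, the TATA box with the letters TATAAA, and the AP-1 motif with the letters TGANTCA, in which N is any base. None of these motifs contains another. Of the windows of the same length in the whole table, 33.9% held CCAAT, 32.7% GGGCGG, 12.4% TATAAA and 6.75% TGANTCA. The first 3 are chains of collagen VI, Col6a1 at chr10:76726045-76726294, Col6a2 at chr10:76623631-76623880 and Col6a3 at chr1:90843972-90844221, all on the minus strand.
Col6a1: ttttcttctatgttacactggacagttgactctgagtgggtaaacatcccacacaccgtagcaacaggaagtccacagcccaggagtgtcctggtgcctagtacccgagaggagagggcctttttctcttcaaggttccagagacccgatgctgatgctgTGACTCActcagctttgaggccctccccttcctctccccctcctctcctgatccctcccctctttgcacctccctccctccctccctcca
Col6a2: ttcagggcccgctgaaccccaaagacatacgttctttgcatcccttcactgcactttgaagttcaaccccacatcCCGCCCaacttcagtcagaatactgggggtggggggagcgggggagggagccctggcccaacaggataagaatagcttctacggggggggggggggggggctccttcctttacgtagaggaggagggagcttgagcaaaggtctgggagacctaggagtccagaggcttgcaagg
Col6a3: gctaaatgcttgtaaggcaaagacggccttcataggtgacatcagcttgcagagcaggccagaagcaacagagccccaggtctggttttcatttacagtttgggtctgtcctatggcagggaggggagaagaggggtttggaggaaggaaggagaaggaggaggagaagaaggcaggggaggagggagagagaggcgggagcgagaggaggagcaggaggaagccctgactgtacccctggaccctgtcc
The Col6a1 window held 1 TGANTCA match, at positions -90 to -84 counted from the start, and the window of Col6a2 held 1 GGGCGG match on the other strand at -175 to -170. None of the 4 motifs was found in the window of Col6a3, which is therefore all in lower case. The next are Col4a1 at chr8:11312827-11313076 on the minus strand and Col4a2 at chr8:11312555-11312804 on the plus strand, the neighbouring genes of the most abundant collagen IV network. Their start sites in the promoter table lie 21 bases apart on opposite strands, and the annotated genes overlap there. The Col4a2 window therefore lies inside the Col4a1 gene, and the Col4a1 window lies inside the Col4a2 gene.
Col4a1: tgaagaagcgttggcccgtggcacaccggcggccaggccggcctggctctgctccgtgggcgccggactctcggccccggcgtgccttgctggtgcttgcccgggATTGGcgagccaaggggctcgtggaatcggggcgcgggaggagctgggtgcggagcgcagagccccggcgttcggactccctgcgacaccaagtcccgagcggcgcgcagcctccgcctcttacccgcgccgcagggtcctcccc
Col4a2: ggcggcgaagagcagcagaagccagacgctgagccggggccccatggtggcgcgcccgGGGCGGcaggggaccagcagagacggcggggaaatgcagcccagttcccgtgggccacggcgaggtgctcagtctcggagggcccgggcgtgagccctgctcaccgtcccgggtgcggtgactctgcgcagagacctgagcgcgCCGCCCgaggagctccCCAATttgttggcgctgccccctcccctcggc
Each of them held 1 CCAAT match, and Col4a2 also held 2 GGGCGG matches. The last is Col4a5 at chrX:141475169-141475418 on the plus strand, the member called at the most times by the probe sets used.
Col4a5: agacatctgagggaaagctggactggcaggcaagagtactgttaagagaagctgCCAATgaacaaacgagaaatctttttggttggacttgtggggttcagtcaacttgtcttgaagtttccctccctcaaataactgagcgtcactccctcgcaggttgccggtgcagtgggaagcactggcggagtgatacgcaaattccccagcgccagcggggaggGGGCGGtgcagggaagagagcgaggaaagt
It held 1 CCAAT match at -196 to -192 and 1 GGGCGG match at -30 to -25. Across the 33 windows 12 held CCAAT, 20 GGGCGG, 5 TATAAA and 1 TGANTCA, and 7 held none. A match describes the letters only, and binding was not measured.

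Values were log2 signals made by the authors with RMA, and a difference of 1 is a doubling of signal. They ran from 2.15 to 15.1, with array medians between 5.54 and 5.64 and no array correlating with another below 0.973. A level of a probe set depends on its sequence, so levels are compared below between mice and never between genes. Of the 42 collagens 24 passed a filter of at least 6 in at least 5 arrays, namely 6 fibrillar, 6 basement membrane and 12 other collagens, while the cartilage collagens Col2a1, Col9a1, Col11a1 and Col10a1, for example, stayed under 6 on all 60 arrays. The lung markers Sftpc, Sftpb, Scgb1a1, Ager and Foxj1 averaged between 12.72 and 13.06 in every mouse, so the tissue label held. In a whole lobe, fewer cells of a type and less RNA per cell cannot be told apart. Both 24 h and 48 h had many changed genes in the whole table, 23.9% and 12.5% of all genes tested, while the early times of 0 and 6 h had 3.67% and 1.17% and the late times of 96 and 168 h had 1.41% and 2.19%. A pair of arrays stood apart from the rest. CON mouse 1 at 0 h had an Alb (albumin) value of 14.02 against 5.27 to 11.35 on the other arrays and an Xist value of 11.94 against 5.16 to 6.02, although all mice are labelled male, and SPIO mouse 3 at 24 h had a mean of 5.60 over 3 Y-linked genes against 6.77 to 7.97. Mice are numbered as in the labels, and values that change their call or clearly change in size without these arrays are given both ways.

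The difference at each time was taken as SPIO minus CON in a linear model over all 12 groups (limma, Benjamini-Hochberg adjustment over all genes, adjusted p under 0.05). SPIO and sham mice had been exposed as separate groups on separate units, so particles and exposure unit cannot be told apart. At the times with many changed genes the share of collagens that passed was below that of all genes: 6 of 42 (14.3%) at 24 h, beside 23.9% of all genes, and 3 of 42 (7.14%) at 48 h, beside 12.5%. Among genes that passed the filter on low values, 7 of 24 members were called at 24 h, beside 38.7% of such genes. At 48 h these were 5 of 24, beside 21.9%. The shares were not compared by a test. Over all 42 members, 1 passed at 0 h (2.38%, beside 3.67%). By the probe sets used, no member passed at 6, 96 or 168 h, and the test named in the study's methods called none either. At these times 6, 3 and 6 members had an unadjusted p under 0.05 in limma, beside 2158, 2607 and 3048 of all 18193 genes. Higher in SPIO mice at 24 h were 4 members, Col1a1, Col4a4, Col6a1 and Col6a2, where 20.3% of all genes were higher, and lower were 2, Col4a5 and Col13a1, where 3.66% of all genes were lower. At 48 h Col8a2 was higher (10.7% of all genes) and Col4a5 and Col13a1 were lower (1.89%). At 0 h Col4a5 was lower (1.11%), with no member higher (2.56%). The 48 h count was 0 without CON mouse 3 (8.20% of all genes called), 1 without SPIO mouse 4 (8.59%) and 5 without CON mouse 4 (2904 of 18193 genes called). The 24 h count was 3 without any 1 of CON mice 1, 4 and 5 or SPIO mice 1 and 4 (18.3% to 22.4%), it was 4 without SPIO mouse 2 or 3 (17.4% and 20.4%), and it was 10 without CON mouse 2 (26.3%). Without both arrays that stood apart Col6a1 and Col13a1 lost their 24 h calls (adjusted p 0.057 and 0.13) and Col27a1 passed at 48 h (-0.30, adjusted p = 0.047), which gave 4 members at 24 h beside 20.8% of all genes and 4 at 48 h beside 12.9%.

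**Figure D1:**
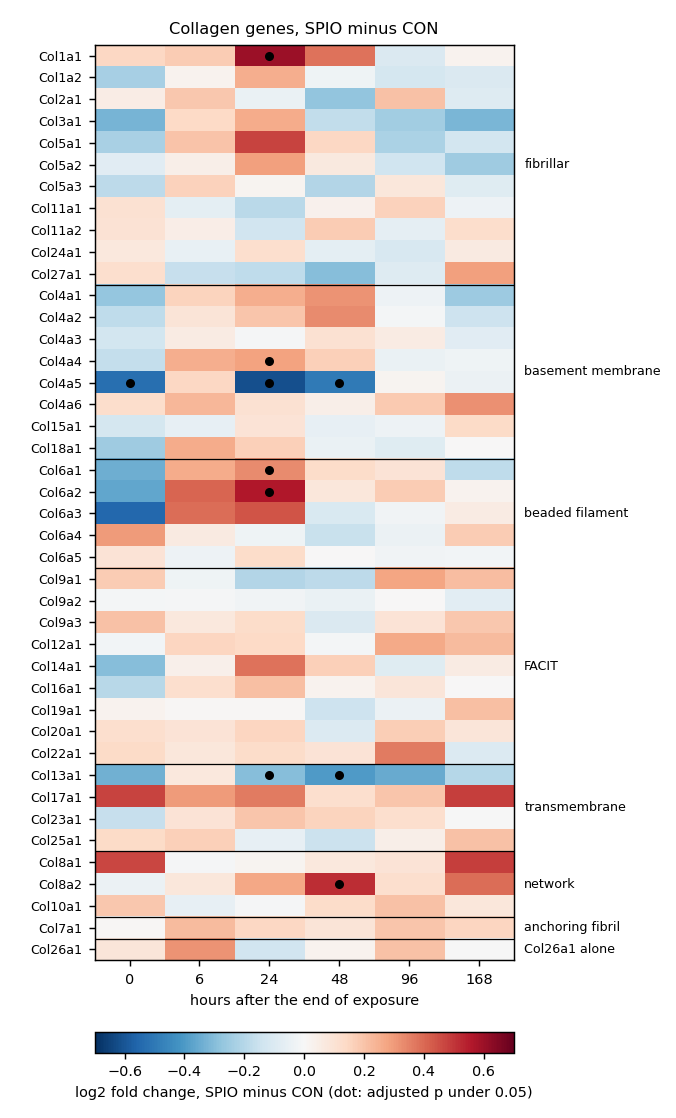
Log2 fold change, SPIO minus CON, of all 42 collagen genes (rows, by class) at the 6 times after exposure (columns), with dots where the adjusted p was under 0.05. Of the 10 dots, 6 lie at 24 h and 3 at 48 h, and Col4a5 carries 3 of them.

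Among the fibrillar collagens Col1a1, the gene of the main chain of collagen I (probe set 1455494_at; chromosome 11, bases 94936224 to 94953042), was the 1 member that passed, at 24 h. Its values there were 7.73, 7.78, 7.76, 8.04 and 7.28 in SPIO mice, against 6.70, 7.85, 7.54, 6.93 and 6.56 in CON mice. SPIO mice lay close together, while CON mice spread over more than 1 log2 unit and 2 of them, mice 2 and 3, reached into the SPIO range. The mean was 7.72 ± 0.27 in SPIO mice and 7.12 ± 0.56 in CON mice (SD, n = 5 each), a difference of 0.60 (SE 0.20, limma adjusted p = 0.023, exact two-sided permutation p = 0.079). Its other probe set gave 0.58 at 24 h (adjusted p = 0.034 over all probe sets). The call was lost without CON mouse 1, 4 or 5 or SPIO mouse 4 (adjusted p 0.057 to 0.11). At 48 h Col1a1 was 8.30 ± 0.31 in SPIO mice and 7.92 ± 0.18 in CON mice, a difference of 0.38 that did not pass (adjusted p = 0.22), and its differences at the other 4 times lay between -0.10 and 0.18. CON mouse 1 at 0 h, one of the arrays that stood apart, had the highest Col1a1 value of all 60 arrays, 8.63, and without the arrays that stood apart the 0 h difference was 0.42 (adjusted p = 0.19), against 0.15 with them.

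Col1a2, the partner chain of Col1a1 in collagen I (chromosome 6, bases 4505618 to 4541543), did not pass at any time. At 24 h it read 12.61, 12.80, 12.22, 12.43 and 12.24 in SPIO mice, against 12.03, 12.70, 12.60, 12.18 and 11.52 in CON mice. The groups overlapped, with a difference of 0.25 (95% interval -0.04 to 0.54, adjusted p = 0.21), which passed only without CON mouse 2 (0.38, adjusted p = 0.047).

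Col3a1, the single chain of collagen III (chromosome 1, bases 45311538 to 45349706), read 12.02, 12.40, 11.73, 11.85 and 11.68 in SPIO mice at 24 h, against 11.24, 12.12, 12.36, 11.53 and 11.12 in CON mice. Its difference of 0.26 (95% interval -0.18 to 0.70, adjusted p = 0.42) was within the spread of the mice, and its differences at the 6 times ran from -0.33 at 0 h to 0.26 at 24 h, none of them called. Without the arrays that stood apart its 0 h difference was -0.09, and its other probe set gave 0.18 at 0 h and 0.20 at 24 h. Col5a1, whose chain helps to start collagen I fibrils, had a difference of 0.47 at 24 h with an adjusted p of 0.076. Of its other probe sets one passed at 24 h (0.42, adjusted p = 0.023 over all probe sets) and the other gave -0.05. Col27a1, a fibrillar collagen known from cartilage, passed at no time with all arrays. At 48 h its SPIO values of 7.13, 7.29, 7.16, 7.11 and 7.03 all lay below the CON values of 7.58, 7.40, 7.51, 7.35 and 7.35 (difference -0.30, adjusted p = 0.051, or 0.047 without the arrays that stood apart). Its other probe set did not show this: the difference was 0.0012 at 48 h (adjusted p = 1 over all probe sets), and at 6 h it was 0.28, against -0.16 from the probe set used. At 168 h the difference from the probe set used was 0.28 (adjusted p = 0.14). Col27a1 was described after its values were seen, as were Col5a1, Col6a3, Col8a1 and Col17a1.

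**Figure D2:**
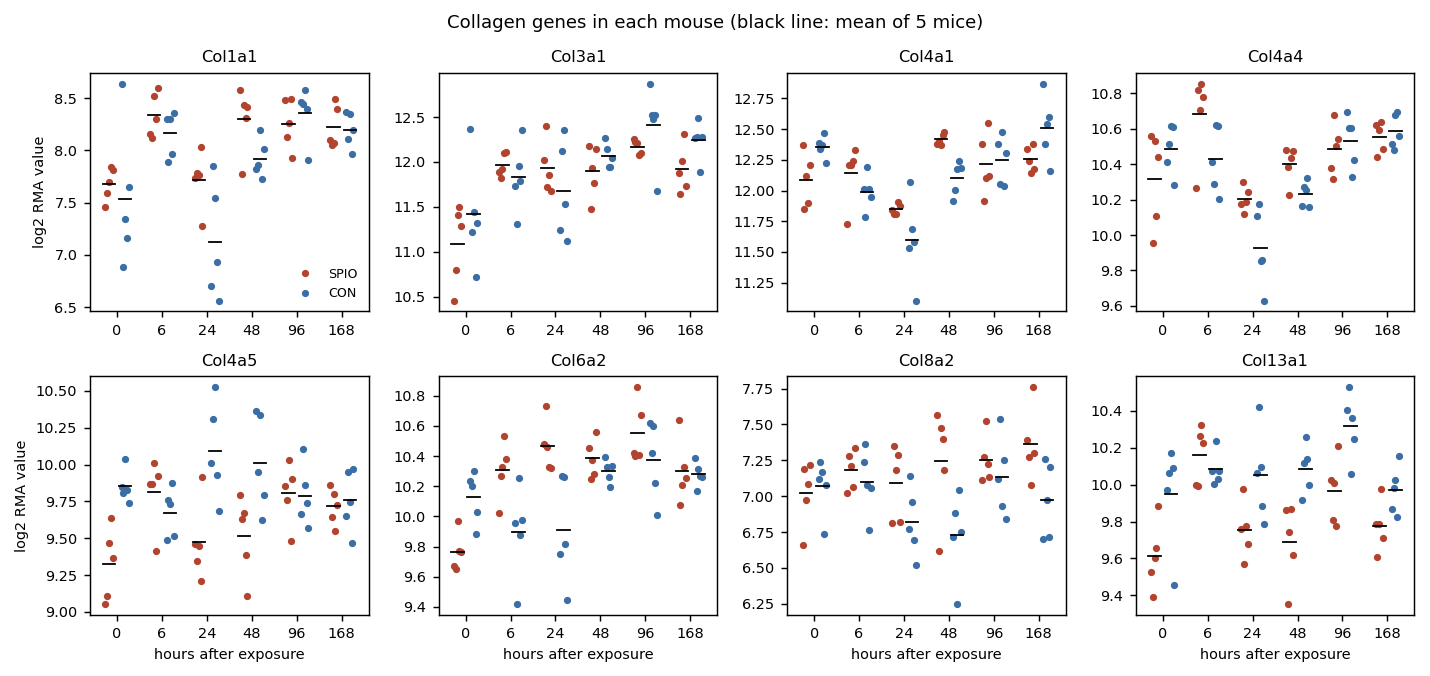
Log2 values of 8 collagen genes in each mouse at the 6 times, SPIO in red left of CON in blue, with black lines at the means of 5 mice. At 24 h all SPIO values of Col6a2 lie above the CON values, and at 48 h all SPIO values of Col4a1 lie above and all those of Col13a1 below the CON values.

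Of the basement membrane collagens Col4a5, an X-linked chain that joins Col4a3 and Col4a4 in the mature collagen IV network of lung and kidney (probe set 1425476_at; chromosome X, bases 141475370 to 141689236), was lower in SPIO mice at 0, 24 and 48 h. At 0 h it read 9.06, 9.11, 9.47, 9.63 and 9.36 in SPIO mice, against 9.85, 9.81, 10.04, 9.83 and 9.74 in CON mice, and the groups did not overlap. The means of 9.33 ± 0.24 in SPIO mice and 9.85 ± 0.11 in CON mice differed by -0.53 (SE 0.15, adjusted p = 0.028, exact permutation p = 0.0079, the smallest that 5 against 5 mice can give). At 24 h it read 9.46, 9.35, 9.45, 9.21 and 9.92 in SPIO mice, against 10.01, 10.31, 10.52, 9.93 and 9.69 in CON mice. Only SPIO mouse 5 and CON mouse 5 crossed, and the difference was -0.61 (SE 0.15, adjusted p = 0.0017, exact permutation p = 0.016). At 48 h it read 9.79, 9.63, 9.67, 9.39 and 9.11 in SPIO mice, against 10.36, 9.95, 10.34, 9.62 and 9.79 in CON mice, a difference of -0.49 (adjusted p = 0.018, exact permutation p = 0.056). The differences at 6, 96 and 168 h were 0.14, 0.02 and -0.04. The 24 h call held without each of the 10 mice (adjusted p 0.00043 to 0.015). That at 0 h was lost without CON mouse 3 or 4 or SPIO mouse 1, 2 or 5 (0.053 to 0.087), and that at 48 h without CON mouse 1 or 3 or SPIO mouse 4 or 5 (0.051 to 0.092). The other probe set of Col4a5, 1425475_at, did not show this: its differences were -0.23, 0.065 and -0.10 at 0, 24 and 48 h, none of them called.

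Col4a4, a partner chain of Col4a5 (chromosome 1, bases 82448419 to 82587034), was higher in SPIO mice at 24 h. It read 10.17, 10.30, 10.12, 10.19 and 10.24 in SPIO mice, against 10.11, 10.17, 9.85, 9.86 and 9.63 in CON mice, so that CON mouse 2 alone reached into the SPIO range. The difference was 0.28 (SE 0.10, adjusted p = 0.039, exact permutation p = 0.016), and it was lost without CON mouse 3, 4 or 5 or SPIO mouse 1, 2, 4 or 5 (adjusted p 0.052 to 0.17). Its 3 probe sets went in different directions. The one used, 1445328_at, and 1440250_at gave 0.28 and 0.17 at 24 h, while 1425772_at gave -0.59 there (adjusted p = 0.00061 over all probe sets). The differences of 1425772_at were negative at all 6 times, from -0.23 at 6 h to -0.61 at 0 h. It also passed in limma over all probe sets at 0, 96 and 168 h (-0.61, -0.45 and -0.57, adjusted p 0.0026, 0.018 and 0.0025). At 6 h 1440250_at passed in the same way (0.34, adjusted p = 0.042). The direction of Col4a4 therefore depends on the probe set that is read. Col4a3, the remaining chain of that network, had differences from -0.13 to 0.11 over the 6 times, none called.

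**Figure D3:**
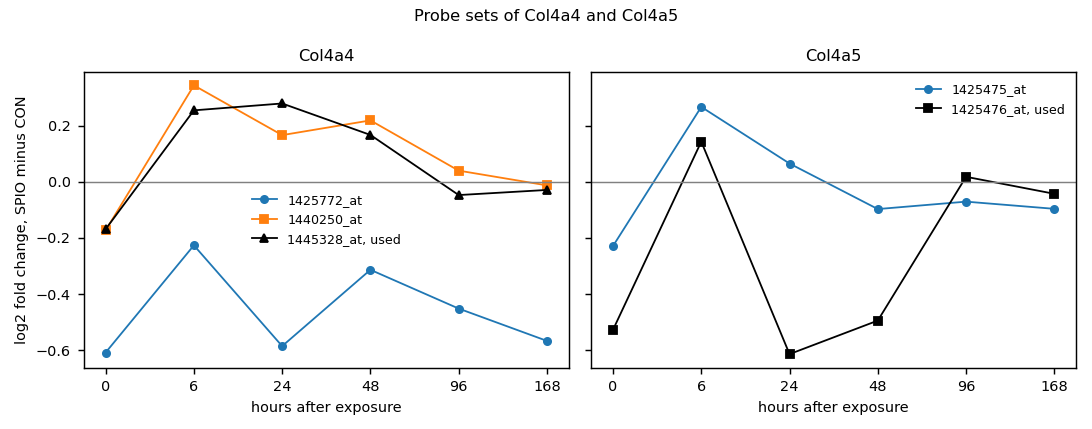
Log2 fold change, SPIO minus CON, of each probe set of Col4a4 and Col4a5 at the 6 times, with the probe set used for the gene in black. At 24 h the 3 probe sets of Col4a4 lie at 0.28, 0.17 and -0.59, and the 2 of Col4a5 at -0.61 and 0.065.

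Col4a1 and Col4a2, the chains of the most widespread collagen IV network, did not pass at any time, but they moved side by side. At 24 h Col4a1 (chromosome 8, bases 11198423 to 11312889) read 11.84, 11.81, 11.81, 11.91 and 11.87 in SPIO mice, against 11.53, 12.07, 11.69, 11.58 and 11.11 in CON mice. The SPIO mice lay within 0.1 of one another, and the CON mice spread around them. At 48 h Col4a1 read 12.38, 12.40, 12.37, 12.46 and 12.48 in SPIO mice, against 11.92, 12.003, 12.18, 12.24 and 12.19 in CON mice. These groups did not overlap (difference 0.31, 95% interval 0.07 to 0.56, adjusted p = 0.079). Over the 6 times the differences of Col4a1 were -0.27, 0.16, 0.25, 0.31, -0.04 and -0.25.

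Col4a2 (chromosome 8, bases 11312805 to 11449287) read 10.94, 11.06, 10.98, 11.05 and 10.72 in SPIO mice at 24 h, against 10.65, 11.29, 10.90, 10.65 and 10.27 in CON mice. At 48 h it read 11.29, 11.42, 11.34, 11.49 and 11.58 in SPIO mice, against 10.96, 10.95, 11.07, 11.17 and 11.32 in CON mice, where SPIO mouse 1 and CON mouse 5 crossed (difference 0.33, adjusted p = 0.062). Its differences over the 6 times were -0.18, 0.09, 0.20, 0.33, -0.02 and -0.15, in each case the sign of Col4a1. Without CON mouse 2 both genes passed at 24 h (0.37 for Col4a1 and 0.33 for Col4a2, adjusted p 0.018 and 0.031), and without CON mouse 5 Col4a2 passed at 48 h (0.39, adjusted p = 0.049). Col18a1, the source of endostatin, Col15a1 and Col4a6 were called at no time.

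Col6a2, a chain of collagen VI (probe set 1452250_a_at; chromosome 10, bases 76595756 to 76623630) read 10.48, 10.73, 10.46, 10.33 and 10.32 in SPIO mice at 24 h, against 9.75, 10.27, 10.26, 9.82 and 9.45 in CON mice. Every SPIO mouse lay above every CON mouse. The means were 10.47 ± 0.17 in SPIO mice and 9.91 ± 0.35 in CON mice, a difference of 0.56 (SE 0.13, adjusted p = 0.0012, exact permutation p = 0.0079), and the call held without each of the 10 mice (adjusted p 0.00028 to 0.012). Its other probe set gave 0.57 (adjusted p = 0.00068 over all probe sets). At 6 h it was 0.41 higher in SPIO mice (adjusted p = 0.10). At 0 h it read 9.67, 9.65, 9.97, 9.77 and 9.77 in SPIO mice, against 10.23, 10.20, 10.30, 9.88 and 10.03 in CON mice, a difference of -0.36 with an adjusted p of 0.099.

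Col6a1 (chromosome 10, bases 76708792 to 76726044) followed the same order. At 24 h it read 9.77, 9.94, 9.65, 9.47 and 9.36 in SPIO mice, against 9.17, 9.65, 9.56, 9.12 and 9.02 in CON mice, a difference of 0.33 (SE 0.12, adjusted p = 0.032, exact permutation p = 0.071) that was lost without CON mouse 1, 4 or 5 or SPIO mouse 1, 2 or 3 (adjusted p 0.055 to 0.14). At 0 h it read 9.36, 9.22, 9.42, 9.19 and 9.31 in SPIO mice, all below the CON values of 9.62, 9.76, 9.74, 9.48 and 9.62 (difference -0.34, adjusted p = 0.087).

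Col6a3 (chromosome 1, bases 90766860 to 90844001), the chain with the long globular ends, was called at no single time. At 24 h it read 10.20, 10.45, 9.85, 9.996 and 9.79 in SPIO mice, against 9.71, 9.79, 9.99, 9.52 and 9.05 in CON mice (difference 0.44, adjusted p = 0.065). At 0 h it read 8.99, 8.71, 9.51, 8.96 and 9.29 in SPIO mice, against 10.02, 9.76, 9.67, 9.22 and 9.52 in CON mice (difference -0.55, adjusted p = 0.074, and -0.45 with an adjusted p of 0.17 without the arrays that stood apart). Col6a4 and Col6a5, chains of later discovery, stayed under 6 on all arrays and had differences from -0.16 to 0.30.

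The change of the effect with time was tested as an interaction, the SPIO minus CON difference at a later time minus that at 0 h. At 24 h it passed for 3 members, 3 of the 5 collagen VI chains, beside 1.18% of all genes: Col6a2 by 0.92 (SE 0.18, adjusted p = 0.0087), Col6a1 by 0.67 (SE 0.17, adjusted p = 0.033) and Col6a3 by 0.99 (SE 0.25, adjusted p = 0.040). At 6 h it passed for Col6a2 alone, by 0.77 (SE 0.18, adjusted p = 0.022), beside 0.885% of all genes, and Col6a1 and Col6a3 had adjusted p-values of 0.056 and 0.054. Later times gave no call among the members, and the shares of all genes called at 48, 96 and 168 h were 0.610%, 0.0220% and 0.0440%. At an unadjusted p under 0.05 in limma there were 9, 4 and 3 members. The shares of all genes are at the adjusted p, so they are no like background for these unadjusted counts. Col6a2 at 24 h kept its call without each of the 20 mice of both times, and at 6 h it lost it without CON mouse 3 at 0 h or CON mouse 2 or SPIO mouse 4 at 6 h (adjusted p 0.052 to 0.079). Col6a1 lost its call without SPIO mouse 2 or 4 or CON mouse 2 or 3 at 0 h, or SPIO mouse 1, 2 or 3 or CON mouse 4 or 5 at 24 h (adjusted p 0.051 to 0.080). Col6a3 lost it without SPIO mouse 2 or 4 or CON mouse 1, 2 or 3 at 0 h, or SPIO mouse 1, 2 or 4 or CON mouse 4 or 5 at 24 h (adjusted p 0.051 to 0.092). Without both arrays that stood apart Col6a1 and Col6a2 passed at 24 h (adjusted p 0.042 and 0.020) and Col6a3 did not (0.053). An F test over the 5 interactions passed for 6 members, Col6a2 (adjusted p = 0.0079), Col4a5 (0.019), Col6a1 (0.021), Col4a1 (0.036), Col27a1 (0.039) and Col6a3 (0.044), beside 8.77% of all genes.

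**Figure D4:**
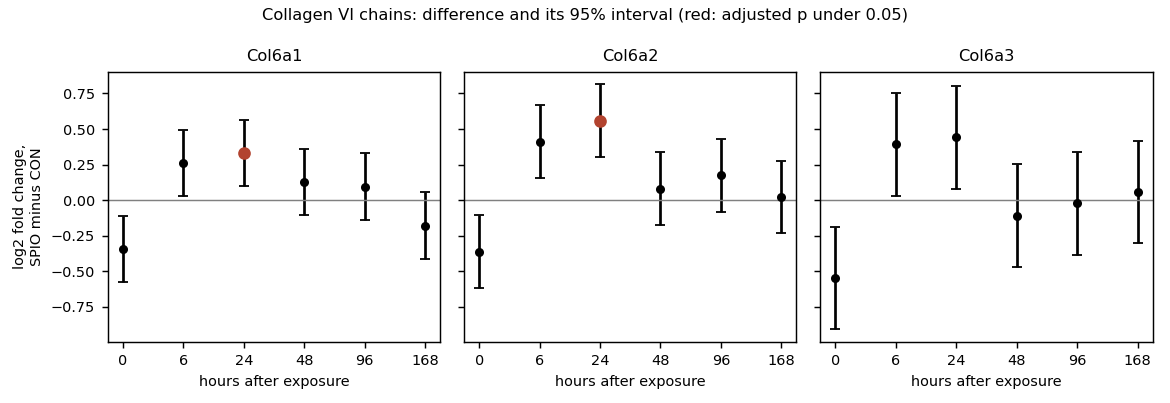
Log2 fold change, SPIO minus CON, of the collagen VI genes Col6a1, Col6a2 and Col6a3 at the 6 times, with 95% intervals from the limma fit and red points where the adjusted p was under 0.05. All 3 lie below 0 at 0 h (-0.34, -0.36 and -0.55) and above 0 at 24 h (0.33, 0.56 and 0.44).

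Of the transmembrane collagens Col13a1, which sits at cell adhesions (chromosome 10, bases 61838234 to 61979206), was lower in SPIO mice at 24 h and 48 h. At 48 h it read 9.86, 9.35, 9.75, 9.87 and 9.62 in SPIO mice, all below the CON values of 9.92, 10.12, 10.26, 10.14 and 9.998 (difference -0.40, SE 0.11, adjusted p = 0.014, exact permutation p = 0.0079). At 24 h it read 9.76, 9.98, 9.57, 9.77 and 9.68 in SPIO mice, against 10.06, 10.42, 10.10, 9.88 and 9.79 in CON mice (difference -0.30, adjusted p = 0.047, exact permutation p = 0.040). The 24 h call was lost without CON mouse 1, 2 or 3 or SPIO mouse 1, 3, 4 or 5 (adjusted p 0.066 to 0.19), among them the SPIO array that stood apart (-0.25, adjusted p = 0.13), and the 48 h call was lost without CON mouse 3 or SPIO mouse 2 (0.054 each). Its differences at 0, 96 and 168 h were -0.34, -0.35 and -0.20, none called, and that at 6 h was 0.08. Col13a1 has 1 probe set. Col17a1, a hemidesmosome collagen, Col23a1 and Col25a1 were not called, although Col17a1 had differences of 0.47 at 0 h and 0.49 at 168 h (adjusted p 0.25 and 0.26).

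Of the network-forming collagens Col8a2, a chain of collagen VIII known from endothelial and corneal matrices (chromosome 4, bases 126286794 to 126314330), was higher in SPIO mice at 48 h. It read 7.57, 6.62, 7.48, 7.40 and 7.18 in SPIO mice, against 6.71, 6.88, 6.25, 7.05 and 6.75 in CON mice, with SPIO mouse 2 inside the CON range. The difference was 0.52 (SE 0.15, adjusted p = 0.019, exact permutation p = 0.048), and it was lost without CON mouse 3 or SPIO mouse 1, 3 or 4 (adjusted p 0.055 to 0.11). At 24 h and 168 h Col8a2 differed by 0.27 and 0.39, not called (adjusted p 0.20 and 0.17). Its partner chain Col8a1 had all SPIO values above all CON values at 168 h (difference 0.48, adjusted p = 0.12), with 0.33 and -0.10 from its other probe sets. The 9 fibril-associated collagens, Col7a1 of the anchoring fibrils, Col10a1 and Col26a1 were called at no time, and the differences of the fibril-associated ones ran from -0.30 to 0.38.

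Counting the members whose SPIO and CON mice did not overlap gave the following. At 0 h these were Col4a5 and Col6a1, beside 4.25% of all genes, at 6 h Col26a1 (3.36%), at 24 h Col6a2 (11.4%), at 48 h Col4a1, Col13a1 and Col27a1 (7.68%), at 96 h Col22a1 (4.11%) and at 168 h Col8a1 (3.86%). These counts of 1 to 3 of 42 members were near or below the shares among all genes.

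The differences can come from either arm, so each group was also set against the mean of the other 5 times of its arm. This comparison shares its mice with the time-matched one and is no independent check of it. CON mice at 24 h stood out, as they did in the whole table: 11 members passed, beside 28.7% of all genes, and 9 of them were lower than at the other times (21.3% of all genes were). The lower ones were Col1a1 by -0.92, Col5a1 by -0.72, Col4a1 by -0.65, Col4a4 by -0.53, Col4a2 by -0.48, Col5a2 by -0.40, Col6a2 by -0.29, Col6a1 by -0.24 and Col4a3 by -0.23, so that all of the members higher in SPIO mice at 24 h were among them. Col27a1 and Col11a2 were higher by 0.49 and 0.29. In SPIO mice no member passed from 24 h onwards, where 0.126%, 0.0934%, 0.566% and 0.176% of all genes were called. At an unadjusted p under 0.05 in limma there were 8, 5, 9 and 1 members, beside 1529, 1534, 2119 and 1615 of all 18193 genes.

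SPIO mice at 0 h had 6 members lower than at the later times, Col6a3 by -0.94, Col3a1 by -0.89, Col6a2 by -0.64, Col18a1 by -0.54, Col1a2 by -0.38 and Col6a1 by -0.31, where 3.00% of all genes passed and 1.91% were lower. At 6 h Col13a1, Col17a1 and Col4a4 were higher by 0.40, 0.61 and 0.29 (4.39% of all genes). CON mice at 0 h had Col3a1 lower by -0.63 (4.22% of all genes were lower). CON mice at 6 h had 4 members, Col17a1, Col8a1 and Col27a1 higher and Col6a2 lower (7.67% of all genes passed). Those at 48 h had none (5.36% passed), with 3 members at an unadjusted p under 0.05 in limma, beside 4313 of all 18193 genes. Those at 96 h had Col5a1 higher by 0.64 (1.07%), and those at 168 h had Col4a1 and Col4a4 higher and Col27a1 lower (5.28%). Of the 24 members that passed the filter, 15 had their lowest SPIO mean at 0 h and 12 their lowest CON mean at 24 h. Without the 2 arrays that stood apart, SPIO mice at 0 h had 7 members beside 3.22% of all genes (Col1a1 and Col5a1 in addition, Col6a1 lost). CON mice at 0 h then had 5 beside 13.5%, in addition Col1a1 and Col18a1 lower and Col4a2 and Col23a1 higher. CON mice at 24 h had 12 beside 28.9%.

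The differences were also summed up as medians by class. Over all genes the medians at the 6 times, in their order, were 0.03, 0.03, 0.09, 0.04, 0.06 and 0.01. The basement membrane collagens had medians of -0.17, 0.15, 0.14, 0.07, -0.02 and -0.04, with 1 of 8 above 0 at 0 h and 7 of 8 above 0 at 6 h. The fibrillar collagens had medians of 0.05, 0.05, 0.12, -0.03, -0.10 and -0.09, and the other collagens 0.03, 0.08, 0.13, 0.02, 0.10 and 0.08. These class medians include genes near background: among members averaging 6 or more the 0 h medians were -0.21 for the basement membrane, -0.16 for the fibrillar and -0.18 for the other collagens, and the 24 h medians were 0.18, 0.28 and 0.20. The medians over all genes given above were not restricted in this way, so they are no like background for these. The fibrillar value at 0 h depended on the arrays that stood apart. With all arrays Col1a1, Col1a2, Col3a1, Col5a1, Col5a2 and Col27a1 differed by 0.15, -0.24, -0.33, -0.23, -0.08 and 0.12 at 0 h. Without those arrays they differed by 0.42, -0.16, -0.09, -0.12, 0.0077 and 0.14.

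Averaged over the members of a class in each mouse, and set against the CON mean of the same time, the basement membrane collagens at 0 h were at -0.15, -0.38, -0.17, -0.11 and -0.15 in SPIO mice, against 0.06, -0.03, 0.01, 0.03 and -0.07 in CON mice, with no overlap. Among all classes and times this was the only such case, and it was not tested. Col4a5, at -0.53, was the lowest member of the class there. The other collagens at 6 h were at 0.06 to 0.17 in SPIO mice, against -0.07 to 0.08 in CON mice, and these ranges crossed. The fibrillar collagens overlapped between the arms at every time. At 24 h the CON mice spread from -0.33 to 0.28 in the fibrillar and from -0.36 to 0.35 in the basement membrane class, against 0.01 to 0.37 and -0.01 to 0.12 in SPIO mice.

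**Figure D5:**
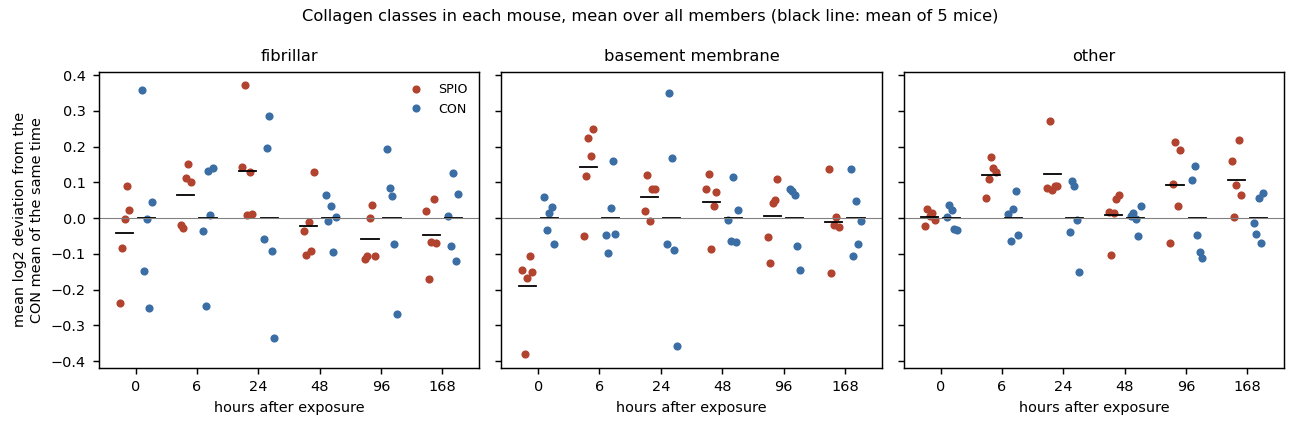
Mean log2 deviation of each collagen class from the CON mean of the same time in each mouse, SPIO in red left of CON in blue, with black lines at the means of 5 mice. The basement membrane class at 0 h is the one in which all SPIO mice lie below all CON mice.

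How far members varied together was described by their residuals after the group means were removed, over the 60 arrays and the 24 members that passed the filter. The arrays share RNA quality and tissue sampling, so these values are a description. The closest pairs were Col4a1 with Col4a2 (r = 0.89), Col6a1 with Col6a2 (0.87), Col14a1 with Col1a2 (0.84) and Col1a2 with Col3a1 (0.84), the first 2 being chains of the same molecule. The median over pairs of fibrillar collagens was 0.64, against 0.30 between basement membrane collagens, 0.29 between the other collagens and 0.29 between basement membrane and fibrillar collagens. The standard deviation within groups of these 24 genes ran from 0.15 to 0.36 with a median of 0.22. In 18 of the 24 the CON means differed more over the 6 times than SPIO differed from CON at any time, and in 20 of the 24 the SPIO means did. A range over 6 means can exceed the largest of 6 differences without any change over time, so these counts are a description.

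The genes that fold, process, anchor and degrade collagen were read beside the collagens. Of all genes, 2.56%, 20.3% and 10.7% were higher at 0, 24 and 48 h, and 1.11%, 3.66% and 1.89% were lower. At 96 and 168 h 1.41% and 2.19% were called in either direction. Of 19 genes for folding and modification, 3 were higher and 1 lower in SPIO mice at 24 h (median 0.15, beside 0.09 over all genes), 1 was higher and 1 lower at 48 h, and 1 was lower at each of 0 and 168 h. Serpinh1, the collagen chaperone HSP47, was lower at 24 h (-0.54, adjusted p = 0.037) and 48 h (-0.87, adjusted p = 0.0022), and its other probe set gave -0.68 and -0.92. P3h1, a prolyl 3-hydroxylase, was 0.39 higher at 24 h (adjusted p = 0.0027). Fkbp14, an endoplasmic reticulum prolyl isomerase, was lower at 0 h (-1.05, adjusted p = 0.0062) and 168 h (-0.97, adjusted p = 0.015), while its other probe set gave -0.13 and 0.03.

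Of 10 genes for processing and cross-linking, 2 were higher at 0 h (2.56% of all genes were) and 3 higher at 24 h (20.3%). At 48 h 1 was higher (10.7%) and 1 lower (1.89%). The median at 24 h was 0.22. Tll1, a procollagen proteinase, was 0.50 higher at 0 h (adjusted p = 0.0073), and the cross-linking enzyme Loxl1 was 0.69 higher at 0 h and 0.55 higher at 24 h (adjusted p 0.038 and 0.036), with 0.08 and 0.21 from its other probe set. Loxl4, of the same enzyme family, was lower at 48 h (-0.33, adjusted p = 0.027).

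Of 8 genes for degradation, 4 were higher in SPIO mice at 24 h and 3 at 48 h, with none lower and medians of 0.47 and 0.37. They were Mmp14, a membrane collagenase that activates Mmp2 (0.52 at 24 h and 0.41 at 48 h, adjusted p 0.00068 and 0.011), the gelatinase Mmp2 (0.44 at 24 h, adjusted p = 0.0058), Ctsk, a lysosomal collagenase (0.78 and 0.84, adjusted p 0.0087 and 0.010), and the neutrophil collagenase Mmp8 (1.70 and 1.67, adjusted p 0.027 and 0.048). At 0, 6, 96 and 168 h no gene of this list was called. The shares of all genes that were higher at these times were 20.3% and 10.7%, with medians over all genes of 0.09 and 0.04. Mmp8 was named after its values were seen.

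Of 9 collagen receptors (median -0.10 at 24 h) the inhibitory receptor Lair1 of leukocytes was higher at 24 h and 48 h (0.65 and 0.67, adjusted p 0.0094 and 0.014), with 0.10 to 0.27 at these times from its other probe sets. The integrin chain Itga2 was lower at 24 h and 96 h (-0.53 and -0.72, adjusted p 0.037 and 0.039), and Itga1 was lower at 48 h (-0.35, adjusted p = 0.037). Of 11 partners of fibrils (median 0.11 at 24 h) only Aspn, a small proteoglycan, was called, lower at 0 h (-0.69, adjusted p = 0.031). Of 12 basement membrane partners (median 0.14 at 24 h) Lama3, a laminin chain of epithelia, was 0.55 higher at 24 h (adjusted p = 0.00078), with -0.03 from its other probe set, and Lama5, of the same family, was 0.33 higher at 48 h (adjusted p = 0.011), with 0.12 and -0.22 from its other probe sets.

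Markers of the cells that make collagen, and of tissues that could lie beside the lobe, were read in the same way, beside the same shares of all genes. Of 8 fibroblast markers Wnt2 was higher in SPIO mice at 0 h and 168 h (1.01 and 0.85) and Pi16 at 24 h (0.68), and the mean of the list at 24 h ran from 10.39 to 10.71 in SPIO mice, against 10.16 to 10.79 in CON mice. None of the 5 smooth muscle and 4 pericyte markers was called at any time, with list means at 24 h of 9.67 to 10.56 in SPIO mice, against 9.70 to 10.74 in CON mice, for smooth muscle and of 8.71 to 8.92 in SPIO mice, against 8.27 to 9.22 in CON mice, for pericytes. Pecam1 of 5 endothelial markers was 0.35 higher at 24 h, and Ager, the alveolar type 1 cell marker among the 5 lung markers, was 0.15 higher (adjusted p = 0.023). At 0 h the list means of smooth muscle were 9.74 to 10.39 in SPIO mice and 10.14 to 10.83 in CON mice, and those of pericytes 8.70 to 9.03 in SPIO mice and 8.95 to 9.30 in CON mice. Of 8 cartilage markers all but Matn4 averaged under 5 over the 60 arrays, as did all 3 bone markers, and at 24 h Matn4 and the bone marker Phex were higher in SPIO mice (0.34 and 0.51). Heart and liver genes varied widely between mice of 1 group, with list means from 4.76 to 12.18 and from 4.84 to 12.04, and no gene of the heart, skeletal muscle, adipose, mesothelium and liver lists was called at any time. The 6 mesothelium markers had median differences of 0.54, -0.70, 0.70, -0.29, 0.33 and -0.61 over the 6 times. All 6 were above 0 at 0, 24 and 96 h, and none was at 6 and 168 h. At 24 h their list means were 6.52 to 8.07 in SPIO mice, against 6.22 to 6.97 in CON mice. The part of these markers in the collagen values was not tested.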

How the data were processed

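RNA of the right diaphragmatic lobe was hybridised by the authors to Affymetrix whole-genome mouse arrays, 1 array per mouse (60 arrays, 12 groups of 5). The deposited values are log2 signals that the authors normalised over all arrays with RMA (version: not given in the sources used here). RMA compresses changes of dim probe sets, and 5 arrays per group limit the precision.

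The table held 45101 probe sets, of which 34945 had 1 gene symbol in the platform annotation, 932 several and 9160 none. For each of 18193 genes the probe set with the highest mean was used. Differences were tested with limma 3.58.1 on R 4.3.3 in a single linear model holding all 12 groups, which left 48 residual degrees of freedom. P-values were adjusted by Benjamini and Hochberg's method across every gene tested, and no fold was required. Exact permutation tests over mice were two-sided, with 0.0079 as the smallest p. The samples are labelled as biological replicates, and p-values measure the spread between these mice. They do not measure a spread between exposures, as each arm was a single exposure group. On simulated 24 h data the test recovered 72% of genes changed by 0.5 log2 and 98% of those changed by 1. Far fewer genes were changed in the simulation than were called in the data at 24 h, and its noise was independent between genes. These shares therefore check the code and do not give the power of the 24 h test.

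Per-mouse values were given for members called at 24 h, at 48 h or at 2 or more times and always for Col1a1, Col1a2, Col3a1, Col4a1 and Col4a2. Of each pathway list up to 3 called genes with the smallest adjusted p were named. The members, lists and markers were chosen with earlier results of these data known. Alternatives were other probe sets, a filter on low values, quantile normalisation repeated, median centring, array weights, trend and robust options, a replicate block, each time alone, stricter thresholds, the ANOVA with Tukey's HSD of the study's methods, and each mouse left out. Promoter windows were read from RefSeq (GRCm38.p6) with Python 3.11.15.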

Additional observations from a re-analysis of the deposited data

Results flagged for a closer look

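The SPIO minus CON difference of 3 of the 5 collagen VI chains changed between times by the interaction test. Col6a4 and Col6a5, which stayed under 6 on all arrays, did not pass. For Col6a2 the SPIO minus CON difference at 6 h exceeded that at 0 h by 0.77 (limma adjusted p = 0.022), and at 24 h it exceeded it by 0.92 (adjusted p = 0.0087). At 24 h the excess was 0.67 for Col6a1 (adjusted p = 0.033) and 0.99 for Col6a3 (adjusted p = 0.040). The 0 h mice enter each of these values, so they are not independent of one another, and Col6a1, Col6a2 and Col6a3 varied together within groups (r from 0.78 to 0.87 over 60 arrays).

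In 7 of 132 group values of the named genes 1 mouse lay far from the other 4, where chance gives about 1 in 20, or about 7. In SPIO mice at 6 h, mouse 1 was low in Col1a2 (11.84, the others 12.19 to 12.30), Col4a1 (11.73, the others 12.21 to 12.33) and Col4a4 (10.27, the others 10.71 to 10.85). In the same group Col4a5 was low in mouse 4 (9.42, the others 9.86 to 10.01). Col6a1 was low in SPIO mouse 2 at 48 h (9.39, the others 9.59 to 9.65). In CON mice Col1a1 was low in mouse 5 at 96 h (7.91, the others 8.39 to 8.57), and Col13a1 was low in mouse 5 at 0 h (9.45, the others 9.97 to 10.17).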

How the results depend on the processing

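Calls of Col6a2 and Col4a5 at 24 h held without each mouse. Counts of called collagen genes at 0, 6, 24 and 48 h were 1, 0, 6 and 3. Without 1 mouse they ran from 0 to 2 at both 0 and 6 h, 3 to 10 at 24 h and 0 to 5 at 48 h, and stayed at 0 at 96 and 168 h. The 0 h count was 0 without CON mouse 3 or SPIO mouse 1 or 5 (1.88%, 3.36% and 1.59% of all genes called) and 2 without CON mouse 5 (2.66%). The 6 h count was 1 without CON mouse 3 (0.890%) and 2 without SPIO mouse 1 (1.60%). With an adjusted p under 0.01 the counts were 0 at 0 h, 2 at 24 h (Col4a5 and Col6a2, beside 12.8% of all genes) and 0 at 48 h, and at 1.5-fold or more they were 0, 2 (Col1a1 and Col4a5, beside 2.90%) and 0. With each time fitted alone they were 0, 2 and 1 (0.759%, 13.3% and 5.61% of all genes), and by the methods' test 0, 1 (Col6a2) and 1 (Col13a1), beside 2.79%, 11.6% and 6.91%. Array weights gave 3 at both 0 and 6 h (8.39% and 4.66% of all genes), 8 at 48 h (27.2%) and 2 at 96 h (3.00%), and the filter on low values 5 of 24 at 48 h (21.9%). The mean of the probe sets of a gene gave 2 at 0 h, 1 at 6 h and 1 at 168 h (3.91%, 2.02% and 3.69%), and quantile normalisation repeated gave 2, 2 and 1 there (6.31%, 2.69% and 2.52%). The cause of these shifts was not tested. At 24 h Col4a4 turned to -0.59 and Col4a5 to 0.065 with another probe set. Repeated quantile normalisation left Col6a2 as the interaction called at 24 h (Col6a1 0.58, adjusted p = 0.062, and Col6a3 0.90, adjusted p = 0.068, in limma).

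Replicate numbers did not pair the mice: 7 of 30 same-numbered pairs correlated above 0.1 (r from -0.51 to 0.47), and 4 correlated best with their own number. With a replicate block the counts were 1, 0, 4, 3, 0 and 0 over the 6 times, Col4a4 and Col13a1 being lost at 24 h. Leaving out both arrays that stood apart, an alternative chosen after seeing the data, gave 1, 0, 4, 4, 0 and 0, beside 4.25%, 1.25%, 20.8%, 12.9%, 1.47% and 2.27% of all genes, with Col6a1 and Col13a1 lost at 24 h and Col27a1 gained at 48 h. Signals near background, 18 of the 42 genes, limit what these arrays show of those genes.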
